A study of Mus musculus with 8 samples.

Results

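Collagen genes were read on whole mouse genome arrays of pancreas RNA from WT and Glis3KO2 mice. A gene was taken as a collagen if the array names it by Col, a type number, the letter a and a chain number, as in Col1a1. The arrays carry 40 such genes, read by 78 probes. A probe was kept if the scanner software called it well above background in 4 or more of the 8 samples, whatever their genotype, and the brightest kept probe stood for its gene. By this rule 37 of the 40 genes were members, out of 23310 gene symbols with a kept probe. Each of the 37 was well above background on all 8 arrays, so no member was kept through the arrays of 1 genotype alone. The 3 that dropped out were the fibrillar chain Col24a1, the cartilage network collagen Col10a1 and Col28a1. Col24a1 was well above background on 1 array by its brighter probe and on 3 arrays by the other. Col10a1 was so on 3 arrays and Col28a1 on 0 arrays.

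The study compared 4 WT (wildtype) and 4 Glis3KO2 mice, all on the C57BL/6 strain and 1 week old, with 1 array of whole pancreas RNA per mouse. Glis3 belongs to the family of zinc finger transcription factors that includes the Gli proteins, and by its title the study asks what Glis3 does in the growth and maturing of beta cells. No treatment was given, and the pups of both genotypes were kept with their own mothers. The labels give neither the deleted part of Glis3 nor the cells in which it is lost, and litters are not given, so the tests see just the spread among these 8 mice, part of which may be technical. With 4 mice a genotype, small differences cannot be resolved.

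Collagens are built from 3 chains wound into a triple helix, in which glycine recurs at a fixed step. Fibrillar collagens (types I, II, III, V, XI, XXIV and XXVII) pack into the banded fibrils of connective tissue and cartilage, and are made in the pancreas mainly by fibroblasts and stellate cells. Type IV collagen forms the sheet-like network of basement membranes, on which acinar, duct, islet and endothelial cells rest, and mouse islets border on the basement membrane of their capillaries. Fibril-associated collagens sit on the surface of fibrils, type VI forms beaded filaments, and transmembrane collagens span the cell surface.

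Levels are given as log2 signal relative to the 75th percentile of the same array, on which 1 unit is a 2-fold change. A probe's brightness depends on its sequence, so levels were never compared between genes. All 11 tested acinar markers, among them the chymotrypsinogen gene Ctrb1, were well above background on all 8 arrays. Glis3 was so on 3 arrays of WT and on 0 of Glis3KO2. Its probe was dim and missed the filter. The groups overlapped, at -6.06 to -5.35 in WT and -6.43 to -5.93 in Glis3KO2, so the loss of Glis3 cannot be read from these arrays. Spike-in transcripts, added to the RNA at set amounts, were lower in Glis3KO2 on this scale for 9 of 10 probes, with a median difference of -0.28, so scaling to them in place of the 75th percentile would move every collagen difference up by about that much. Xist, expressed from the inactive X chromosome in females, was high on WT replicate 4 and Glis3KO2 replicates 1, 3 and 4. By this, 1 WT and 3 Glis3KO2 mice were female, so sex was unbalanced between genotypes, also for the X-linked Col4a5 and Col4a6. Glis3KO2 replicates 3 and 4 stood apart on the first principal component (scores of 39.75 and 58.99, against -25.97 to 0.46 on the other arrays). The genotypes were hybridised on 1 slide each, and for every result below the effects of slide and genotype cannot be told apart.

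No collagen gene passed the test between genotypes. Of the 37, 0 rose and 0 fell at a limma adjusted p of 0.05 over all 33239 probes, of which 0.256% passed (85 probes; 0.0812% higher and 0.174% lower in Glis3KO2). At an unadjusted p under 0.05, 4 were higher and 3 lower in Glis3KO2, where 3.1% of all probes were higher and 5.87% lower (8.97% in all), so the 7 of 37 are given as a description. The difference was positive for 22 collagen genes and negative for 15, where 48% of all probes were positive and 52% negative. Its median over the 37 was 0.06, beside -0.01 over all probes, and the members ran from -0.56 (Col9a1) to 0.50 (Col2a1). All 4 Glis3KO2 arrays were above all 4 WT arrays for Col2a1 and Col6a2 (1.85% of all probes), and below them for Col9a1, Col9a3 and Col20a1 (3.35%). That is 5 of 37 genes in either direction, beside 5.2% of all probes. In the same RNA, 5 of 8 beta cell genes fell, Ins2 from a mean of 8.97 in WT to 5.27 in Glis3KO2. RNA of whole tissue does not separate fewer cells of a type from less RNA per cell, which holds for every value below.

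**Figure D1:**
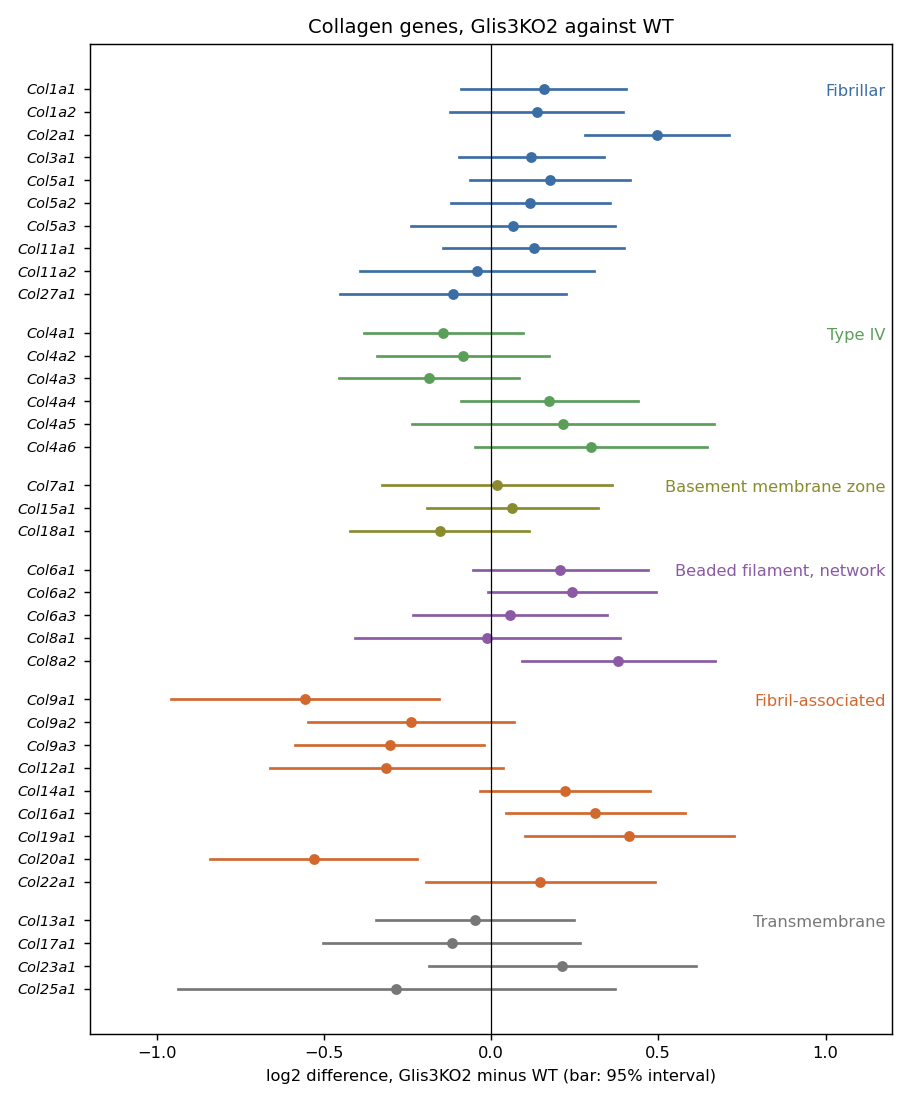
The log2 difference between Glis3KO2 and WT is plotted for each of the 37 collagen genes, grouped by family, with bars for the 95% interval from limma, not adjusted for the number of genes. Most intervals span 0, and Col2a1 lies farthest to the right at 0.50 while Col9a1 and Col20a1 lie farthest to the left at -0.56 and -0.53.

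Among the fibrillar collagens, 0 of 10 rose or fell, 8 had a positive and 2 a negative difference, and the median was 0.12. Col2a1 was the 1 gene of the 10 with an unadjusted p under 0.05. The main fibril chains of connective tissue, types I and III, had means 0.12 to 0.16 higher in Glis3KO2 by their brightest probes, with overlapping groups. With quantile normalization the differences were 0.23 for Col1a1 (adjusted p = 0.57), 0.33 for Col1a2 (adjusted p = 0.42) and 0.33 for Col3a1 (adjusted p = 0.32). Col1a1, the alpha 1 chain of type I collagen, is printed at 10 spots on each array, and its probe lies at chr11:95060800-95060859 (mouse build mm7, plus strand). Its level in WT replicates 1 to 4 was 7.06, 6.78, 6.95 and 7.13, and in Glis3KO2 replicates 1 to 4 it was 7.25, 7.18, 7.05 and 7.08, the order kept below. WT replicate 2 was the lowest and Glis3KO2 replicate 1 the highest, with the other 6 arrays mixed between. The difference was 0.16 (SE 0.11, adjusted p = 0.73), with a 95% interval of -0.09 to 0.40. The other 2 kept probes of Col1a1 gave 0.29 (interval 0.00 to 0.57, adjusted p = 0.55) and 0.33 (interval 0.03 to 0.63, adjusted p = 0.51), also with overlapping groups. The 10 spots had an SD of 0.035 to 0.102 within an array, as large as some of the gaps between arrays.

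Col1a2 supplies the other chain of type I collagen, and its probe lies at chr6:4493505-4493564 of mm7. Its level was 7.41, 7.27, 7.23 and 7.52 in WT and 7.65, 7.55, 7.44 and 7.32 in Glis3KO2, with overlap, and the difference was 0.14 (SE 0.11, adjusted p = 0.78). Its other probe, which was dim, gave -0.14 (adjusted p = 0.88), and the mean of the probes was near 0. Col3a1, whose product forms homotrimers and shares fibrils with type I, lies at chr1:45585395-45585454. It read 7.34, 7.31, 7.42 and 7.53 in WT and 7.57, 7.60, 7.44 and 7.48 in Glis3KO2. Here only WT replicate 4 reached into the Glis3KO2 range, and the difference was 0.12 (SE 0.10, adjusted p = 0.77, 95% interval -0.10 to 0.34).

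Type V collagen is the chain set that starts fibrils and limits their width. Col5a1 read 4.00, 4.00, 3.92 and 4.26 in WT and 4.28, 4.27, 4.13 and 4.20 in Glis3KO2. As for Col3a1, WT replicate 4 was the sole WT array within the Glis3KO2 range, and the difference was 0.18 (SE 0.11, adjusted p = 0.68). Col5a2 was at 2.44, 2.33, 2.26 and 2.44 in WT and 2.42, 2.66, 2.52 and 2.34 in Glis3KO2, a difference of 0.12 (SE 0.11, adjusted p = 0.79). Col5a3 was at 2.92, 2.96, 2.94 and 3.32 in WT and 3.22, 3.28, 2.93 and 2.97 in Glis3KO2, a difference of 0.06 (SE 0.13, adjusted p = 0.93). Both sets of arrays overlapped, and for Col5a3 WT replicate 4 was the highest of all 8.

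The type XI and type XXVII chains, which are best known from cartilage, were at or below the 75th percentile on every array. Col11a1 read -1.06, -1.07, -1.05 and -0.91 in WT and -0.61, -1.01, -1.03 and -0.92 in Glis3KO2, a difference of 0.13 (SE 0.12, adjusted p = 0.81). Glis3KO2 replicate 1 was well above the remaining arrays, and the other 3 lay inside the WT range. Col11a2 showed the same array on top: WT read -2.02, -2.10, -1.99 and -2.05 and Glis3KO2 -1.67, -2.14, -2.44 and -2.07, a difference of -0.04 (SE 0.15, adjusted p = 0.97). Col27a1 was at -0.99, -1.08, -0.72 and -0.55 in WT and -0.76, -1.08, -0.82 and -1.13 in Glis3KO2, a difference of -0.11 (SE 0.15, adjusted p = 0.88), and its groups overlapped throughout.

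Col2a1, the chain of the type II collagen of cartilage, had the highest positive difference and the lowest adjusted p of the 37. Its brightest probe, at 10 spots per array, lies at chr15:97979237-97979296 of mm7 on the minus strand. The level was 3.104, 2.954, 2.947 and 3.106 in WT and 3.573, 3.607, 3.444 and 3.474 in Glis3KO2. The lowest Glis3KO2 array was at 3.444 and the highest WT array at 3.106, so the groups did not overlap, and the 10 spots had an SD of 0.075 to 0.151 within an array. The difference of 0.50 (SE 0.09, 95% interval 0.28 to 0.71), a 1.41-fold higher mean, did not pass the test (limma adjusted p = 0.112). It passed with normexp background correction (0.50, adjusted p = 0.0333) and when limma's variance prior followed the signal and was made robust (adjusted p = 0.0234).

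A further probe reads almost the same stretch of Col2a1 near the 3′ end of its coding sequence, which lets the difference be looked at again on the same RNA. The 2 probes are shown 5′ to 3′ as printed on the array, with the 40 bases they share in capitals:
Col2a1, dimmer probe: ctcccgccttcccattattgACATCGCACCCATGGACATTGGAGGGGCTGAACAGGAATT
Col2a1, brightest probe: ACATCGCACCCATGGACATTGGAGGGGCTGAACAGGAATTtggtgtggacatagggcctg
They are offset by 20 bases. The dimmer probe read -0.13, -0.56, -0.55 and -0.43 in WT and 0.28, -0.31, -0.52 and -0.38 in Glis3KO2. Its groups overlapped, and the difference of 0.19 (SE 0.19, adjusted p = 0.824) was of the same sign as that of the brightest probe but smaller. Averaging the gene's 3 kept probes gave 0.30 (adjusted p = 0.69). The third of them was dim, above background on 4 of the 8 arrays, and gave 0.21 (SE 0.38). Of the listed cartilage markers 4 of 6 were tested, and 0 rose or fell, with a median difference of 0.19. The 4 were split, with the matrix genes Comp at 0.49 (adjusted p = 0.395) and Acan at 0.42 (adjusted p = 0.67), Hapln1 at -0.05 and Matn3 at -0.42, and were named after their values were seen. Matn3 was dim, and above background in 3 WT samples and 1 Glis3KO2 sample. Its highest array was Glis3KO2 replicate 1 at -3.98, so no direction can be given for Matn3. With normexp Comp was at 0.16 and Acan at 0.20. The summed linear signal of the cartilage markers relative to the 75th percentile was 0.288 to 0.352 in WT and 0.333 to 0.490 in Glis3KO2, and Matn1 and Cnmd did not reach the filter. Their part in the Col2a1 difference was not tested.

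**Figure D2:**
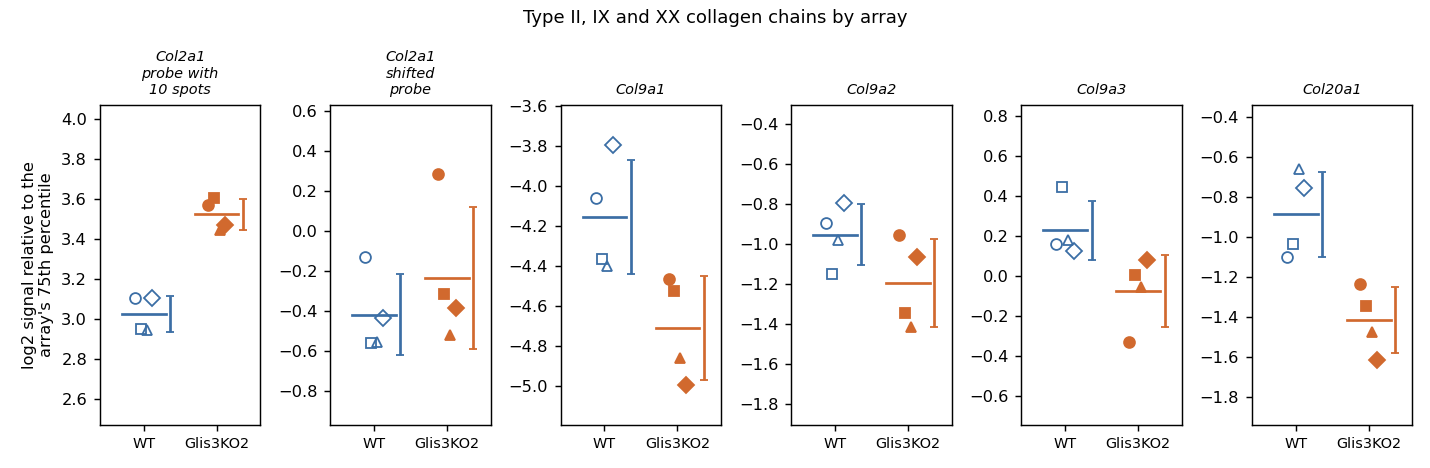
The log2 level is plotted for each array (points) with the group mean (bar), for Col2a1, its overlapping dimmer probe, the 3 type IX chains and Col20a1. Glis3KO2 arrays lie above WT arrays for the brightest Col2a1 probe and below them for Col9a1, Col9a3 and Col20a1, while the dimmer Col2a1 probe and Col9a2 overlap.

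The type IV chains of basement membranes were tested for all 6 genes, and 0 rose or fell or had an unadjusted p under 0.05; 3 differences were positive and 3 negative, with a median of 0.05 and a range of -0.19 to 0.30. Col4a1 and Col4a2 make the trimer found in nearly every basement membrane. Col4a1, at chr8:11167020-11167079 of mm7, read 3.95, 3.95, 3.95 and 4.12 in WT and 3.76, 4.03, 3.88 and 3.73 in Glis3KO2. Glis3KO2 replicate 2 lay inside the WT range and the other 3 below it, and the difference was -0.14 (SE 0.11, adjusted p = 0.74, 95% interval -0.38 to 0.10). Col4a2, at chr8:11416851-11416910, read 3.81, 3.62, 3.74 and 3.87 in WT and 3.67, 3.91, 3.58 and 3.56 in Glis3KO2. Glis3KO2 replicate 2 was again the highest Glis3KO2 array, and the difference was -0.08 (SE 0.11, adjusted p = 0.88).

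Col4a3, Col4a4 and Col4a5 form the trimer known from kidney glomerulus and lung. Col4a3 was dim, at -4.86, -4.81, -4.73 and -4.59 in WT and -4.75, -5.11, -4.81 and -5.06 in Glis3KO2, a difference of -0.19 (SE 0.12, adjusted p = 0.70). A further Col4a3 probe gave 0.36 (adjusted p = 0.672), so the direction for this gene depended on the probe. Col4a4 read 1.09, 1.26, 0.98 and 1.01 in WT and 1.40, 1.11, 1.12 and 1.41 in Glis3KO2, a difference of 0.17 (SE 0.12, adjusted p = 0.72), with Glis3KO2 replicates 1 and 4 above all WT arrays. Col4a5 ran from -2.75 to -2.26 in WT and from -2.68 to -1.96 in Glis3KO2, a difference of 0.21 (SE 0.20, adjusted p = 0.81). Col4a6, which pairs with Col4a5 in smooth muscle and some epithelial basement membranes, read 0.14, -0.15, -0.02 and 0.48 in WT and 0.28, 0.39, 0.65 and 0.32 in Glis3KO2. All Glis3KO2 arrays were above 3 of the 4 WT arrays, and the difference was 0.30 (SE 0.15, adjusted p = 0.62).

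Type IV genes lie head to head in pairs, on opposite strands. In RefSeq's GRCm38.p6 annotation, Col4a1 starts on the minus strand at position 11312826 and Col4a2 on the plus strand at position 11312805 of chromosome 8, 21 bases apart. By these starts the transcripts overlap at their 5′ ends, and the stretch below lies within both. The stretch chr8:11312805-11312826, from one start to the other on the plus strand, is shown because it belongs to both genes, with a GC box in capitals:
Col4a1 and Col4a2 starts: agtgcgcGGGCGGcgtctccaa
Across the 8 arrays the levels of this pair followed each other (r = 0.795, as given with the other chain pairs). Col1a1 and Col1a2, which lie on chromosomes 11 and 6, gave r = 0.865. The part of the shared start in the Col4a1 and Col4a2 value was not tested. Col4a5 and Col4a6 start 1343 bases apart on chromosome X, on opposite strands.

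The collagens of the basement membrane zone are Col7a1, which makes the fibrils that anchor the membrane, and Col15a1 and Col18a1, which carry sugar chains and of which Col18a1 is the source of endostatin. None of the 3 rose or fell, with a median difference of 0.02, and 0 of the 3 was non-overlapping or had an unadjusted p under 0.05. Col7a1 read 3.95, 4.26, 3.84 and 4.06 in WT and 4.39, 3.89, 4.08 and 3.81 in Glis3KO2, a difference of 0.02 (SE 0.15, adjusted p = 0.99). Col15a1 read 0.97, 0.73, 0.88 and 1.00 in WT and 1.10, 1.06, 0.90 and 0.78 in Glis3KO2, a difference of 0.06 (SE 0.11, adjusted p = 0.92). Col18a1 read 3.69, 3.50, 3.51 and 3.80 in WT and 3.59, 3.62, 3.33 and 3.35 in Glis3KO2, a difference of -0.15 (SE 0.12, adjusted p = 0.75). Glis3KO2 replicates 3 and 4 were the lowest of the 8 arrays for Col18a1, and no such split was seen for the other 2 genes.

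**Figure D3:**
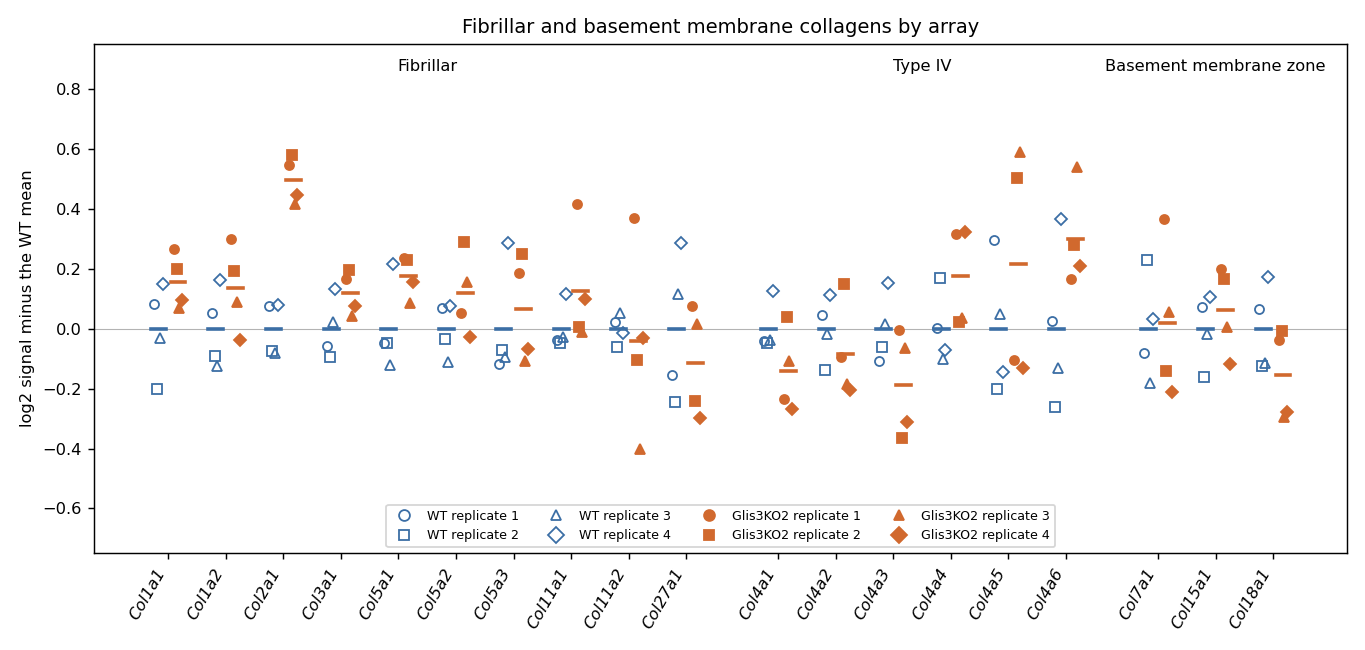
Each array's log2 signal minus the WT mean of the gene is plotted for the fibrillar, type IV and basement membrane zone collagens, with WT arrays open and Glis3KO2 arrays filled. The groups are mixed for every gene shown except Col2a1, where all 4 Glis3KO2 arrays lie above the WT arrays.

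Set against each other within an array by the median of each family's brightest probes, fibrillar collagens were higher relative to type IV collagens in Glis3KO2. The type IV genes were split, so this does not hold chain by chain. Col4a1, Col4a2 and Col4a3 had negative differences, and Col4a4 (0.17), Col4a5 (0.21) and Col4a6 (0.30) positive ones. The medians of the gene differences lay closer together, at 0.12 for the fibrillar and 0.05 for the type IV genes. For each array the median deviation from the WT mean over the 6 type IV genes was subtracted from that over the 10 fibrillar genes. The WT arrays gave -0.02, 0.03, -0.03 and 0.02, and the Glis3KO2 arrays 0.30, 0.10, 0.07 and 0.19. Every Glis3KO2 array was above every WT array, but Glis3KO2 replicates 2 and 3 by a small step. The mean was 0.17 ± 0.10 (SD, n = 4) in Glis3KO2 and 0.00 ± 0.03 in WT. Because each gene was centred on its own WT mean, WT lies near 0 by construction. The centring also narrows the WT spread relative to that of Glis3KO2, so the separation of the groups is a description. No p is given, because the gene groups were compared with these data already known. The order held with normexp (a difference of 0.13) and quantile normalization (0.18), but not when all probes of a gene were averaged. Then the Glis3KO2 arrays read 0.32, -0.09, -0.18 and 0.20, the groups overlapped, and the difference of the means was 0.08.

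**Figure D4:**
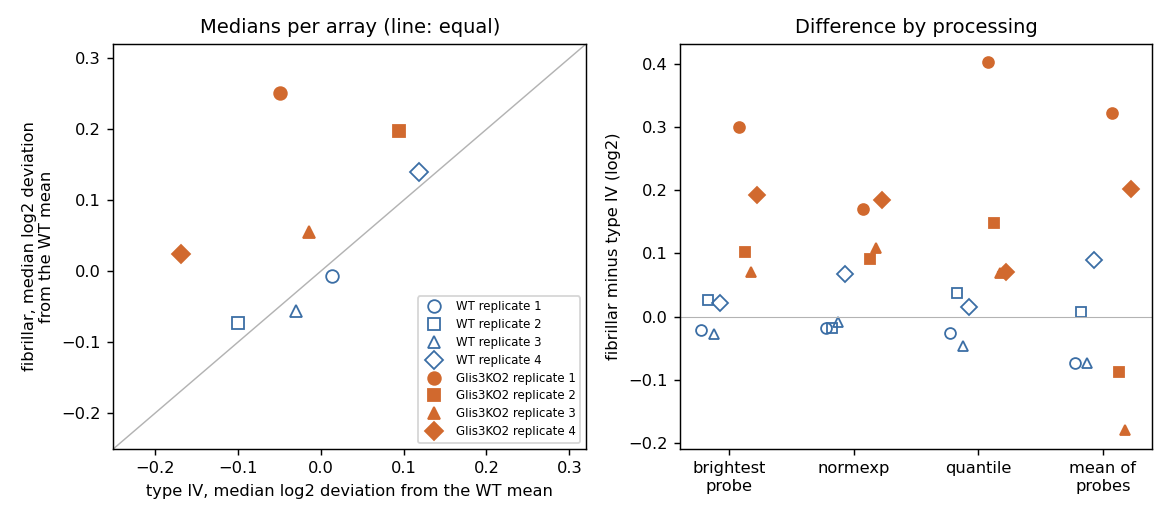
On the left, each array's median log2 deviation from the WT mean is plotted for the fibrillar genes against that for the type IV genes, with a line where both are equal. On the right, the difference between the 2 medians is shown for each array under 4 ways of processing; Glis3KO2 arrays lie above WT arrays with the brightest probe per gene, and overlap them when the probes of a gene are averaged.

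Endothelial cells lie on a type IV network, and their markers are given beside these values. All 10 markers had a negative difference, 0 rose or fell, and their median was -0.20. The median deviation of the list was -0.11 to 0.16 on WT arrays and -0.21, 0.05, -0.33 and -0.45 on Glis3KO2 replicates 1 to 4. The summed linear signal of the 10 was 43.4 to 52.1 in WT and 35.2 to 43.7 in Glis3KO2. The 12 markers of mesenchyme and stellate cells had a median of 0.06, with 10 positive, 0 that rose or fell, and summed signals of 250.5 to 319.8 in WT and 277.5 to 322.5 in Glis3KO2. No marker of either list was at background on any array, and their part in the collagen values was not tested.

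Of the beaded filament and network collagens, 0 of 5 tested genes rose or fell, 4 were positive, and the median was 0.21. Col8a2 was the 1 gene with an unadjusted p under 0.05. Type VI collagen surrounds cells and nerves with fine filaments. Col6a2 read 1.90, 1.98, 1.92 and 2.12 in WT and 2.14, 2.45, 2.17 and 2.13 in Glis3KO2. The groups did not overlap, but WT replicate 4 and Glis3KO2 replicate 4 nearly met, and the difference was 0.24 (SE 0.11, adjusted p = 0.57). Its further probe gave 0.05 with overlapping groups. Col6a1 had a difference of 0.21 (adjusted p = 0.66) and Col6a3 one of 0.06 (adjusted p = 0.94). The short-chain collagens of type VIII, made by vessel and corneal cells, split: Col8a1 was at -0.01, and Col8a2 at 0.38 (SE 0.13, adjusted p = 0.43).

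The fibril-associated collagens held the lowest differences of the 37 genes, Col9a1 and Col20a1. Of 9 genes 0 rose or fell, 4 were positive and 5 negative with a median of -0.24. At an unadjusted p under 0.05, 2 were higher (Col16a1 and Col19a1) and 3 lower, where 3.1% of all probes were higher and 5.87% lower. Type IX collagen coats type II fibrils in cartilage, and its 3 chains were all lower in Glis3KO2 where Col2a1 was higher. Col9a1 read -4.06, -4.37, -4.40 and -3.79 in WT and -4.46, -4.52, -4.86 and -4.99 in Glis3KO2. All Glis3KO2 arrays were lower, replicate 1 by a narrow step, and the difference was -0.56 (SE 0.18, adjusted p = 0.39). The probe was dim, and with normexp, which raises dim signals, the difference was -0.19. Col9a2 read -0.89, -1.15, -0.98 and -0.79 in WT and -0.95, -1.34, -1.41 and -1.06 in Glis3KO2, a difference of -0.24 (adjusted p = 0.67) with overlap. Col9a3 read 0.16, 0.44, 0.18 and 0.13 in WT and -0.33, 0.00, -0.06 and 0.08 in Glis3KO2. It did not overlap, and the difference was -0.30 (SE 0.12, adjusted p = 0.52).

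Col20a1, a fibril-associated collagen, lies at chr2:181518278-181518337 of mm7 and is read by 1 probe. It was at -1.10, -1.03, -0.66 and -0.75 in WT and -1.23, -1.34, -1.47 and -1.61 in Glis3KO2, and every Glis3KO2 array was below every WT array. The mean was 1.44-fold lower, a difference of -0.53 (SE 0.14, 95% interval -0.84 to -0.22, adjusted p = 0.27). This was the second lowest adjusted p of the 37 collagen genes. Markers of nerve and glia were lower over the same arrays, 7 of 8 of them with a negative difference and 0 that rose or fell, with a median of -0.25. Their median deviation ran from -0.07 to 0.04 on WT arrays and from -0.45 to -0.07 on Glis3KO2 arrays, with summed signals of 4.31 to 5.17 in WT and 3.48 to 4.31 in Glis3KO2. Their part in the Col20a1 value was not tested.

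Col16a1, which joins fibrils and fibrillin microfibrils, read 3.40, 3.33, 3.33 and 3.70 in WT and 3.71, 3.86, 3.82 and 3.61 in Glis3KO2. WT replicate 4 alone reached the Glis3KO2 range, and the difference was 0.31 (SE 0.12, adjusted p = 0.48). Col19a1 had a difference of 0.41 (adjusted p = 0.43) by its brightest probe and -0.92 (adjusted p = 0.455) by another, which was detected above background in 4 WT samples and 1 Glis3KO2 sample. The brightest probe gave 0.09 with normexp, and no direction can be given for Col19a1. Col12a1 and Col14a1, which bind type I fibrils, had differences of -0.31 (adjusted p = 0.60) and 0.22 (adjusted p = 0.62), and Col22a1, known from tissue junctions, one of 0.15 (adjusted p = 0.83).

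Of the 4 transmembrane collagens 0 rose or fell, 0 had an unadjusted p under 0.05, and the median was -0.08. Col25a1, a collagen of nerve cells, had the widest spread of any member, from -2.63 to -1.86 in WT and from -3.06 to -1.78 in Glis3KO2, and its difference of -0.28 had an SE of 0.29. Col17a1, the hemidesmosome collagen of epithelia, had a difference of -0.12, Col13a1 one of -0.05 and Col23a1 one of 0.21. A further, dimmer Col13a1 probe gave -0.49 (adjusted p = 0.56) with overlapping groups, so the size for this gene depended on the probe. By their brightest probes all 4 genes overlapped between genotypes.

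Several probes per gene gave a second look at the same RNA. Of 24 collagen genes with more than 1 kept probe (54 probes), all probes had the same sign for 17. The 7 that mixed signs were Col1a2, Col3a1, Col4a3, Col6a3, Col8a1, Col11a2 and Col19a1. Over all 67 kept collagen probes 0 passed the test, and the lowest adjusted p was 0.112. Some probes lie within the triple helix and show its repeat, with a glycine codon (GGN) opening each amino acid triplet, in capitals, 5′ to 3′ as on the array:
Col11a2: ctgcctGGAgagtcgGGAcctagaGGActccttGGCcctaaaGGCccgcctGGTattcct
Col5a1: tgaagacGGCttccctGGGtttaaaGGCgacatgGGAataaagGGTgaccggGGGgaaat
Col5a3: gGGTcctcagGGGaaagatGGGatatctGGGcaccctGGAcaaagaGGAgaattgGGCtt
Those of Col11a2 and Col5a1 hold 6 such codons and that of Col5a3 holds 7. The helix probe of Col11a2 gave a difference of 0.40 (adjusted p = 0.576), where the brightest probe of that gene gave -0.04. Those of Col5a1 and Col5a3 gave 0.02 and 0.05, against 0.18 and 0.06 for their brightest probes.

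Chains that are wound into the same molecule followed each other from mouse to mouse for types I, IV and VI, but type V did not pass the test. There were 5 pairs, compared over the 8 arrays, with exact permutation p-values (2-sided) adjusted over the 5. Col1a1 and Col1a2 correlated at r = 0.865 (p = 0.0038, adjusted p = 0.0085; rho = 0.881, adjusted p = 0.0091), and Col6a1 and Col6a2 at r = 0.924 (p = 0.0034, adjusted p = 0.0085; rho = 0.881). Col1a1 and Col3a1, which share fibrils, gave r = 0.850 (p = 0.0051, adjusted p = 0.0085; rho = 0.905), and Col4a1 and Col4a2 gave r = 0.795 (p = 0.018, adjusted p = 0.023; rho = 0.881). Without the 2 arrays farthest from the median of the chain named first, these 4 values were 0.90, 0.84, 0.72 and 0.82. Col5a1 and Col5a2 did not pass (r = 0.593, p = 0.122, rho = 0.595), and without such arrays r was 0.18. With each genotype centred on its own mean, the 5 values in this order were 0.82, 0.87, 0.77, 0.78 and 0.40. A genotype alone has 4 arrays, too few for a value of its own. All genes of an array share its RNA and scaling, and other gene pairs were not compared, so nothing here is particular to collagens.

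**Figure D5:**
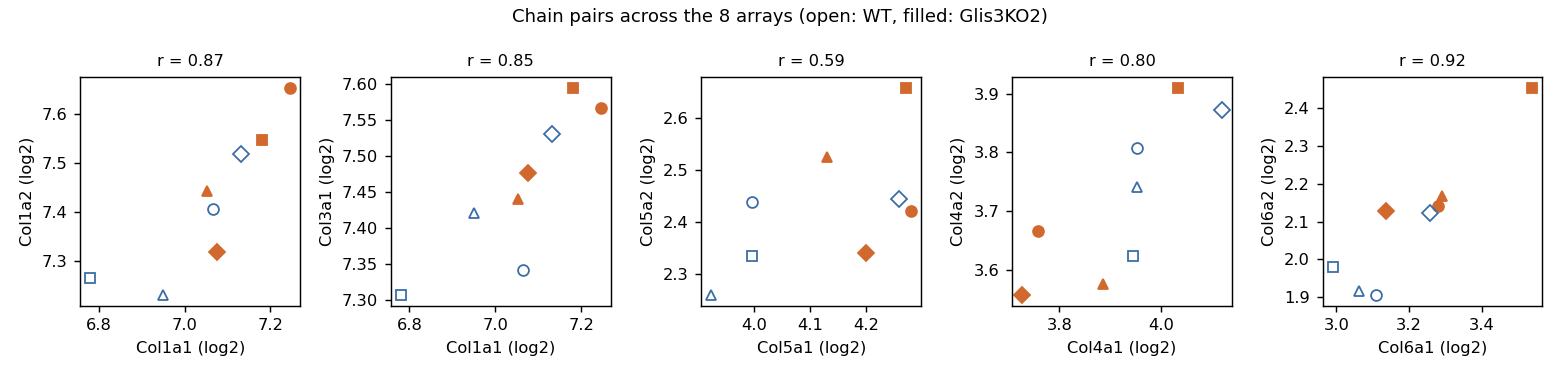
The log2 level of one chain is plotted against that of its partner for 5 pairs over the 8 arrays, with WT arrays open and Glis3KO2 arrays filled and Pearson's r above each panel. Open and filled points lie along the same band for types I, IV and VI, and scatter most for type V.

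Col1a2 and Col3a1 both followed Col1a1 across the arrays, and the sequences before their starts differ. RefSeq's table (GRCm38.p6) held the promoters of 32 of the 40 genes. The 150 bases before each start are shown 5′ to 3′ on the plus strand, chr6:4505468-4505617 for Col1a2 and chr1:45311388-45311537 for Col3a1, with a CCAAT box and a TATAAA box in capitals:
Col1a2: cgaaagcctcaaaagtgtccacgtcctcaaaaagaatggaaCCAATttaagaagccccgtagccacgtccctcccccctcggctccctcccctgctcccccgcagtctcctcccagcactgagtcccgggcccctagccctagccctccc
Col3a1: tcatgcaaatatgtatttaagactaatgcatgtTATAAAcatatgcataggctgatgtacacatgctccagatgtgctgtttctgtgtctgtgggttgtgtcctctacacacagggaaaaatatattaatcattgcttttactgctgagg
The boxes begin at -109 and -117 from the start. On either strand of the 250 bases before a start, CCAAT was found in 12 of 35 collagen windows (34.3%) and in 33.8% of all windows, and TATAAA in 5 (14.3%) against 12.4%. The GC box GGGCGG was in 19 (54.3%) against 32.7%. TGGGGGGT, the core of the site that Glis proteins bind, was in 1 (2.86%), that of Col5a1, against 1.36% of all windows. These matches are letters in a window, not binding.

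Genes that build, hold and remove collagen were read from lists of known members, each gene by its brightest probe, and 0 rose or fell in any of the 7 lists. Of 19 genes for chain modification and folding, 16 were positive with a median of 0.15, and 0 had an unadjusted p under 0.05. Serpinh1, the collagen chaperone HSP47, had a difference of 0.16 (adjusted p = 0.75), P4hb, a subunit of prolyl hydroxylase, one of 0.24 (adjusted p = 0.66), and the proline isomerase Ppib one of 0.00 (adjusted p = 0.997). The 10 genes for procollagen cleavage and crosslinking had a median of 0.05, with Pcolce, which speeds the removal of the C-propeptide, at 0.05, the N-proteinase Adamts2 at 0.20 and the lysyl oxidase Loxl1 at 0.12. Among 16 fibril partners the median was 0.02, and the small proteoglycan Dcn (0.01), Sparc (0.00) and Postn (-0.01) were all near 0. The 15 basement membrane partners had a median of 0.09, with Agrn at -0.04, Nid1 at 0.11 and the laminin chain Lamc1 at 0.03.

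Among the lists of collagen-related genes, collagen receptors had the lowest median, -0.14 over 10 genes. The marker lists of beta cells, nerve and glia, and endothelium had lower ones (-1.21, -0.25 and -0.20). Ddr1, a receptor tyrosine kinase of epithelia that binds fibrillar and type IV collagens, read 2.63, 2.84, 2.73 and 2.69 in WT and 2.38, 2.42, 2.46 and 2.33 in Glis3KO2. Every Glis3KO2 array was lower, and the difference was -0.32 (SE 0.09, adjusted p = 0.332). Ddr2, its counterpart in fibroblasts, had a difference of -0.09, and Itgb1, the beta chain of collagen integrins, one of 0.03. With Ddr1, the integrin chains Itga1 and Itga2 and the inhibitory receptor Lair1 made up the 4 genes with an unadjusted p under 0.05, all lower (5.87% of all probes), and were named after their values were seen. Itga2, at -0.59 (adjusted p = 0.166), was dim, and above background in 4 WT samples and 2 Glis3KO2 samples.

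The 13 genes for collagen breakdown and its inhibitors had a median of 0.09, with Mmp2 at 0.25 (adjusted p = 0.68), Mmp14 at 0.06 and Timp2 at 0.03. TGF beta drives collagen synthesis in stellate cells, and its 18 ligands, receptors, binding proteins and targets had a median of 0.05. Ltbp3, which holds latent TGF beta in the matrix, read 3.35, 3.37, 3.24 and 3.21 in WT and 3.54, 3.57, 3.52 and 3.53 in Glis3KO2. All Glis3KO2 arrays were higher, but the difference of 0.24 did not pass (SE 0.09, adjusted p = 0.457). Ltbp4 (0.03) and Tgfbr2 (-0.03) were near 0. At an unadjusted p under 0.05 (8.97% of all probes) there was 1 gene among the fibril partners and 1 among the basement membrane partners (both higher), 3 in the TGF beta list (2 higher and 1 lower), and 0 among the cleavage and breakdown genes. Of the marker lists, 6 of 8 beta cell genes, 3 endothelial genes, 2 of nerve and glia and 1 of duct were lower at that level, and 1 of mesenchyme and 1 of cartilage were higher. Of the remaining marker lists, 0 of 11 acinar, 8 duct, 8 leukocyte and 5 adipocyte genes rose or fell, with medians of -0.13, 0.06, 0.05 and -0.01, and the summed signals of each overlapped between genotypes.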

How the data were processed

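Total RNA (500 ng per sample, per the labels' protocols) was labelled with Cy3 and read on 8 single-colour arrays. The authors deposited the linear intensity of each spot, made with Feature Extraction 9.5.3.1 per the file headers (9.5 per the submitters' processing notes). The array design places its probes on mm7. All 45018 values of the series table equalled the processed signal.

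The processed signal was put on a log2 scale and the array's 75th percentile subtracted, which hides a shift common to most genes. Between 56 and 130 spots flagged as outliers per array were left out, and 0 spots were saturated. Probes well above background numbered 31353 to 35631. Genotypes were compared with limma 3.58.1 (lmFit, eBayes, 2-sided) in R 4.3.3, with genotype alone as a term and Benjamini-Hochberg adjustment over 33239 probes. Alternatives covered the background, normalization, filter, variance prior, array weights, replicate block, Xist level, left-out arrays and mean of a gene's probes. Gene symbols were updated through RefSeq accessions (22951 of 25510 matched). Promoters come from RefSeq.

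The members and gene lists were chosen with earlier results of these data known. The text names every collagen gene, list members past the threshold and the 3 brightest of each list of collagen-related genes. The limma step was tested on simulated data with independent noise per probe, which held no slide effect and no outlying array. Replicate numbers were shared by the genotypes, with correlations of -0.04 to 0.24 between same-numbered samples. Of 8 samples, 5 correlated best with their own number, so these values do not settle whether the numbers mark pairs. Same-numbered samples were not taken as pairs in the main test, and the replicate block was run as an alternative.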

Additional observations from a re-analysis of the deposited data

Results flagged for a closer look

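In 5 of 74 groups of 4 arrays (37 genes in 2 genotypes), 1 array stood far from the other 3 on the log2 scale, where chance gives about 1 in 20. WT replicate 4 was the high one in 4 of them. It read 4.12 for Col4a1, where the others were at 3.945 to 3.954, and 3.319 for Col5a3, where they were at 2.918 to 2.962. For Col11a1 it read -0.9063 against -1.068 to -1.049, and for Col19a1 -3.756 against -4.212 to -4.169. WT replicate 4 was the only WT array with a high Xist level, and it had the largest number of probes well above background (35631). The part of either in these values was not tested. Glis3KO2 replicate 2 read 2.454 for Col6a2, against 2.128 to 2.168 on the other Glis3KO2 arrays.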

How the results depend on the processing

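Over 20 alternative settings and 37 genes, 740 differences were computed. Just 2 passed the threshold, which raised the count of collagens, and of fibrillar collagens, from 0 to 1 with normexp and with the trended, robust variance prior (Col2a1 in each). The sign turned in 23 values of 10 genes, and the cause was not tested. No sign could turn under the filters, the variance prior, the replicate block or the deposited values, which leave a gene's difference unchanged. Over all probes, 85 passed, and 51 without the filter, 142 with the trended, robust prior, 15 with the replicate block, 27 with Xist level as a covariate, 35 to 96 with 1 array left out, and 11 without Glis3KO2 replicates 3 and 4. The replicate block gave 0 collagens, and 5 of 8 samples correlated best with their own number. The fibrillar minus type IV difference (0.17) was 0.12 to 0.20 with 1 array left out, 0.14 without Col2a1 and 0.16 with the basement membrane zone genes. For Col1a1, Col1a2, Col3a1, Col5a1 and Col5a2 against Col4a1 and Col4a2, a choice made after values were seen, it was 0.26. It was 0.3574 with quantile normalization and 0.2776 with normexp. That choice leaves out Col4a4, Col4a5 and Col4a6, which were positive (0.17, 0.21 and 0.30), and Col4a3, which was negative (-0.19). Of the fibrillar genes it leaves out Col2a1, Col5a3 and Col11a1 (positive) and Col11a2 and Col27a1 (negative).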
